A study of Mus musculus with 8 samples.

Results

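Genes of DNA replication and S phase were examined in mouse embryos injected with siRNA against the histone-binding proteins Rbbp4 and Rbbp7. The set was written by function, as 55 gene symbols. Rows of the deposited abundance table were matched to it by Ensembl identifier, and their mean across the 8 libraries had to reach 10. In all, 54 genes entered the set out of 12565 genes that reached this minimum and 19058 genes in the table. Each of the 54 matched genes reached the minimum, and Ccna1, a germline cyclin also on the list, is not analysed here. The genes were split by role into origin licensing (9 genes), the helicase and its activation (14 genes), polymerases (9 genes), the clamp, its loader and strand completion (12 genes) and nucleotide supply (5 genes). Another 5 genes, Wdhd1, Timeless, Tipin, Clspn and E2f1, fell outside these roles and were kept as a group of fork protection and S phase control.

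The embryos were late morulae collected 78 h after fertilization. At the zygote stage they had received small interfering RNA (siRNA) targeting Rbbp4 (the Rbbp4 knockdown), Rbbp7 (the Rbbp7 knockdown), both transcripts (the double knockdown) or no specific transcript (the control). Each of the 4 groups had 2 libraries of polyadenylated RNA, and the control embryos were injected as well. No label gives the mouse strain or how many embryos made up a library. Nothing in the labels states that the libraries of a group were made from different embryo pools, so a p-value here measures only the spread between these libraries, which may be technical. Values are relative to the other RNA of the same library and come from whole embryos, so fewer cells of a type and less RNA per cell cannot be told apart.

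DNA is copied once in each cell cycle. In G1 phase the origin recognition complex, Cdc6 and Cdt1 load a ring of Mcm proteins onto DNA. In S phase the kinase of Cdc7 and Dbf4 acts on the loaded rings, Cdc45 and the GINS proteins join them to form the working helicase, and primase, polymerases, the sliding clamp Pcna and its loader copy the opened strands. Many of these genes are transcribed under E2F factors around the entry into S phase. Cleavage-stage mouse embryos cycle without much growth, and Rbbp4 is also a subunit of CAF-1, which places histones on freshly copied DNA.

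The targeted genes were checked first. Rbbp4 was at 5300 and 4710 (control), 402 and 343 (Rbbp4 knockdown), 4370 and 4467 (Rbbp7 knockdown) and 348 and 433 (double knockdown). Rbbp7 was at 8399 and 7205 (control), 6696 and 6295 (Rbbp4 knockdown), 298 and 293 (Rbbp7 knockdown) and 327 and 266 (double knockdown). Each target was low in the libraries whose labels name it and in no other library. Library totals of normalized abundance ran from 11334107 to 12011829, and the 54 genes made up 0.586% to 0.612% of them. Control replicate 1 stood apart, with more genes at 0 (3937, where the rest had 2644 to 3237) and a larger mitochondrial share of its signal (6.21%, where the rest had 4.26% to 5.53%). All 10 morula and trophectoderm markers were found, Pou5f1 and Cdx2 among them, with a summed level of 48085 and 46963 in the double knockdown and 51045 to 60824 in the other 6 libraries. The sum hides markers that went opposite ways in the Rbbp7 knockdown. Nanog was at 9093 and 10156 there against 6698 and 6322 in the control. Krt8 was at 2400 and 2575 against 4742 and 6945.5, and Krt18 at 1174 and 1421 against 3300 and 4116. Single markers also differed in the double knockdown, where Nanog was below the control, at 4192 and 4692. Krt8 (3326 and 4333), Krt18 (1545 and 1959) and Cdx2 (1409 and 1195, against 1771 and 2869) were below it as well. So were Gata3, Tead4 and Cdh1, while Pou5f1 and Dppa5a lay within the control range and Tfap2c overlapped it. Summed levels over the 3 cumulus and granulosa markers measured, of 9 listed, were 115 and 80.6 in the double knockdown and 20.1 to 41.6 in the others, mostly from Foxl2, while Fshr and Cyp19a1 are not analysed here. Oviduct markers summed to 79.6 to 280.1, mostly from Krt7 (52.5 to 263), while Ovgp1 was at 26.1 or less. Oocyte markers summed to 77.1 to 171, blood markers to 0.968 to 26.8 and sperm markers to 0 to 4.91. What part these differences had in the results for the replication genes was not tested.

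A shared sequence feature was sought in the promoters, since E2F factors are textbook regulators of this set. RefSeq promoter windows (build GRCm38.p6, 250 bases before to 50 bases after a transcript start) were searched on both strands for the octamers TTTCGCGC, TTTGGCGC, TTTCCCGC and TTTGCCGC, which may overlap one another. Of the 45 genes of the set with a window, 16 (35.6%) held at least 1 octamer, against 704 of all 27025 genes with a window (2.605%) and 454 of 9527 tested genes (4.77%). The 45 genes had 54 windows, and a match in any window of a gene counted. For 47 of these windows the last bases lay in an annotated transcript of the gene. The 16 genes were Orc1, Orc3, Cdc6, Cdt1, Mcm3, Mcm5, Mcm6, Mcm7, Gins3, Pola1, Pold1, Pold3, Pole2, Rfc3, Lig1 and Clspn. They came from 5 of the 6 role groups, and of the 5 nucleotide supply genes none held an octamer in its window. Within the 250 bases before the start alone, 9 genes (20.0%) held one, against 2.16% of all genes with a window and 3.96% of tested genes. A match is a stretch of letters and no evidence of binding. Windows of 30 bases around an octamer are shown for licensing, helicase and clamp loader genes discussed with their values, so that the shared letters can be compared. They are written 5′ to 3′ along the gene's own strand, with 1 octamer or its reverse complement in capitals.
Orc1 chr4:108579416-108579445 (+ strand): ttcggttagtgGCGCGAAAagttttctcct
Cdc6 chr11:98908002-98908031 (+ strand): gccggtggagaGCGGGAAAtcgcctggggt
Cdt1 chr8:122568035-122568064 (+ strand): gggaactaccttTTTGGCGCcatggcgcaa
Mcm3 chr1:20820263-20820292 (− strand): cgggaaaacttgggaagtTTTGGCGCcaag
Mcm5 chr8:75109345-75109374 (+ strand): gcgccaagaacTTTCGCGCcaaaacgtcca
Mcm6 chr1:128359797-128359826 (− strand): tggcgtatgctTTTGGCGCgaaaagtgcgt
Mcm7 chr5:138171849-138171878 (− strand): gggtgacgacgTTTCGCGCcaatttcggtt
Gins3 chr8:95633507-95633536 (+ strand): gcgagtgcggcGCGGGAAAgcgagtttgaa
Rfc3 chr5:151651200-151651229 (− strand): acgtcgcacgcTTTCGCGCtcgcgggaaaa
In Mcm5 and Mcm6 the capitals run on into a second octamer on the opposite strand, which overlaps the first. The Rfc3 window also holds TTTCCCGC as its reverse complement, in lower case near the end. In Cdt1, Mcm3 and Mcm7 the octamer in capitals lies after the annotated start, and in the other 6 genes shown it begins before it.

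Levels per kilobase of merged exons put nearly the whole set among the more abundant transcripts of the morula. The median of the 54 genes was 248 units of normalized abundance per kb over all libraries, against 61.9 for the tested genes with an annotated length, and 53 genes lay above the median tested gene in the control. Rrm2, the small subunit of ribonucleotide reductase, was the most abundant, at 3377 per kb, and Prim2, the large subunit of primase, the least, at 44.6 per kb. Role medians per kb were 366 for nucleotide supply, 350 for the helicase, 281 for licensing, 234 for the clamp group, 120 for the polymerases and 99.0 for fork protection and S phase control. Gmnn, the inhibitor of Cdt1, stood at 791 per kb beside 751 for Cdt1 itself, and their libraries overlapped in range. Among the 6 subunits of the Mcm ring the level per kb was 365 for Mcm2, 659.5 for Mcm3, 603 for Mcm4, 141 for Mcm5, 538 for Mcm6 and 682 for Mcm7. All 8 libraries had Mcm5 below the other 5 subunits. Merged exons hold every annotated transcript, so a level per kb is understated for a gene with long, little used exons.

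**Figure D1:**
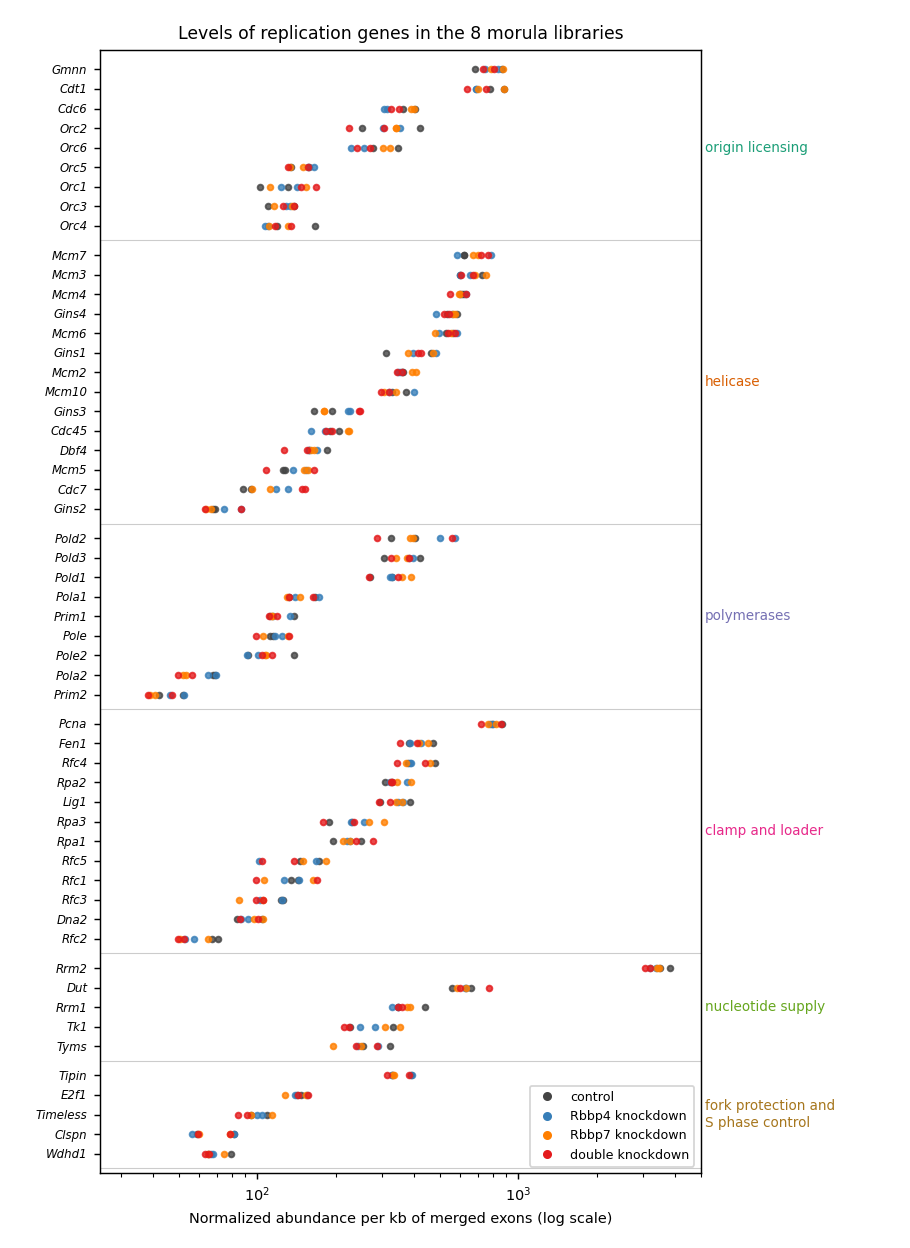
Normalized abundance per kb of merged exons (log axis) of the 54 genes, by role, with 1 point per library coloured by group. Within a gene the groups mostly intermingle, while genes range from 44.6 (Prim2) to 3377 (Rrm2) per kb.

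Against the control, 0 of the 54 genes passed the test in any knockdown. The test was limma on log2(value + 1) over all 12565 genes, with Benjamini-Hochberg adjustment and a threshold of 0.05. In the Rbbp4 knockdown 0 of 54 genes were called, where 0.0239% of all tested genes were, and 3 genes had an unadjusted p below 0.05 (Cdc6, Cdc7 and Gins3), where 5.86% of all tested genes had one. In the Rbbp7 knockdown the count was 0, where 0.0239% of all tested genes were called, and 1 gene had an unadjusted p below 0.05 (Pola2), where 9.55% did. The double knockdown again had 0 calls, where 1.15% of all tested genes were called, and 4 genes had an unadjusted p below 0.05 (Cdc7, Gins3, Pola2 and Rfc2), where 17.3% did. At these backgrounds a set of 54 genes would hold few calls or none, so the counts of 0 do not set the set apart from other genes. The smallest adjusted p (limma, Benjamini-Hochberg) in the set was 0.814 for the Rbbp4 knockdown, 0.465 for the Rbbp7 knockdown and 0.066 for the double.

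The intervals of the fit give the precision of each fitted change. They are per gene and unadjusted, and like the p-values they measure only the spread between these libraries, which may be technical. Intervals of 95% for the log2 change had a median half-width of 0.35 over the set, from 0.23 to 0.60. They lay wholly inside a 2-fold difference in either direction for 53 of 54 genes in the Rbbp4 knockdown (98.1%, against 63.5% of all tested genes), for all 54 in the Rbbp7 knockdown (61.4% of all tested genes) and for 53 in the double knockdown (98.1%, against 57.6%). The exceptions were Pold2 in the Rbbp4 knockdown and Cdc7 in the double knockdown. Inside a log2 change of 0.5 either way lay 30, 33 and 26 genes in turn (55.6%, 61.1% and 48.1%). The shares of all tested genes were 24.8%, 21.6% and 18.7%. The intervals of the other genes of the set reached past that size. Replicate libraries of the set lay closer together than those of all tested genes, which were not matched to it for abundance. The median level was 248 per kb in the set and 61.9 over tested genes. What part abundance had in the interval widths and replicate differences was not tested. The mean difference between the 2 libraries of a group had a median over genes of 0.18 on the log2 scale, against 0.28 over all tested genes. It was smallest for Mcm2 at 0.039 and largest for Clspn at 0.45.

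**Figure D2:**
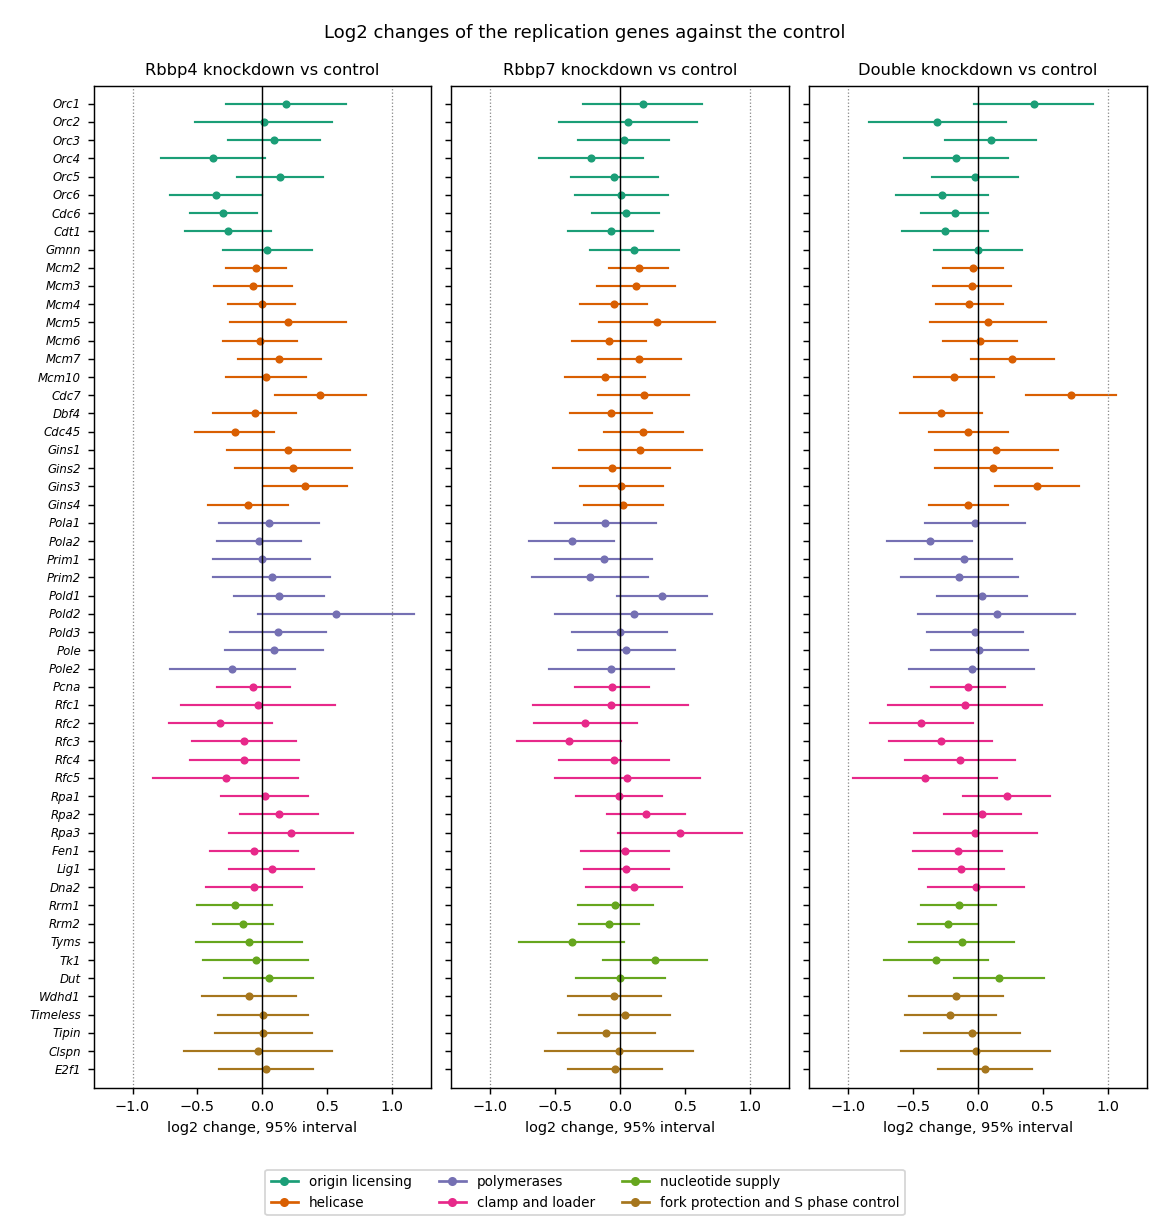
Log2 change of each of the 54 genes against the control with its 95% interval (x axes), coloured by role, in 3 panels for the Rbbp4, Rbbp7 and double knockdowns. Dotted lines mark a 2-fold difference, which the interval of Pold2 crosses in the first panel and that of Cdc7 in the third.

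In the direction of the fitted changes, the single knockdowns were balanced and the double knockdown less so. Fitted log2 changes were negative for 28 of 54 genes in each single knockdown, with medians of −0.0046 (Rbbp4) and −0.0020 (Rbbp7) beside 0.0049 and 0.0095 over all tested genes. Under double knockdown 37 were negative, with a median of −0.058 beside −0.00056 over all tested genes. That count was 28 without control replicate 1, 30 after quantile normalization, 29 after scaling to equal totals and 38 in another alternative. The count of negative values thus depends on the scaling and on 1 library. Scaling to equal totals moves all genes of a library together, so a sign count does not measure the set's gap to other genes. Over alternatives other than leaving out 1 library, medians ran from −0.061 to −0.012 (set) and −0.023 to 0.044 (all tested genes). With 1 library left out they ran from −0.11 to −0.0065 (set) and −0.018 to 0.0083 (all tested genes). The ends of these ranges are not paired by setting. The median of the set differed between replicate libraries by an SD of 0.065 on the log2 scale, which is larger than the median of −0.058. Split by role, the set gives 18 medians over the 3 comparisons, and 16 of them turned sign when some 1 library was left out. Control replicate 1 turned 9 and control replicate 2 turned 7, so most role medians given with each group have no settled direction. All 3 comparisons share the control libraries.

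**Figure D3:**
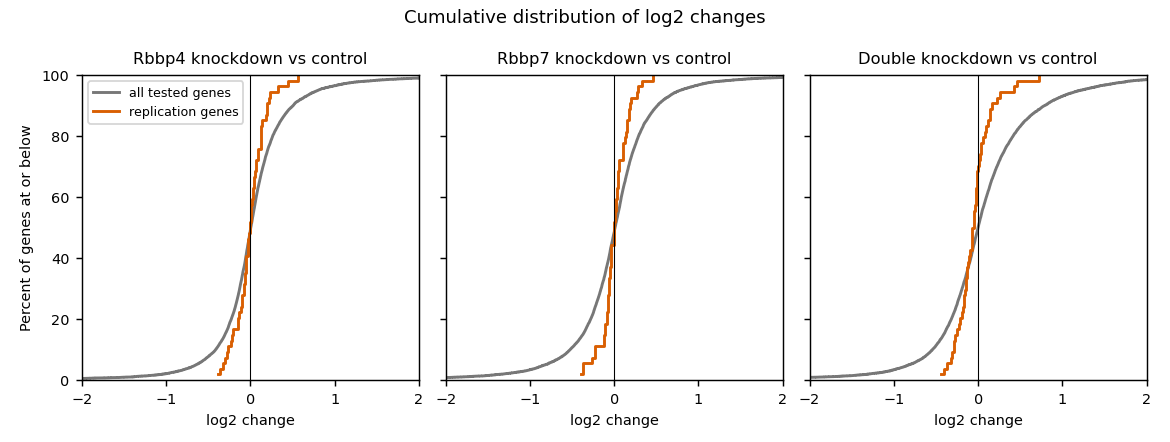
Cumulative percent of genes (y axis) at or below each log2 change (x axis) for the 54 replication genes and for all 12565 tested genes, in the Rbbp4, Rbbp7 and double knockdowns. The replication genes form the steeper curve in each panel, and in the double knockdown it crosses 0 at 37 of 54 genes. The sets of genes were not matched for abundance.

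For most genes of the set the libraries of a knockdown did not lie wholly to 1 side of the control. Both double knockdown libraries lay above both control libraries for 4 genes (7.41%, against 21.9% of all tested genes), namely Orc1, Mcm7, Cdc7 and Gins3. Both lay below for 12 genes (22.2%, against 22.2%), namely Orc6, Cdc6, Cdt1, Mcm10, Dbf4, Pola2, Rfc2, Rfc3, Rfc5, Rrm2, Tk1 and Timeless. In the Rbbp4 knockdown 6 genes lay above (11.1%, against 18%) and 8 below (14.8%, against 17.4%). In the Rbbp7 knockdown 8 lay above (14.8%, against 19.9%) and 8 below (14.8%, against 19.7%). The shares below the control were close to or under the background, and those above it were under it.

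**Figure D4:**
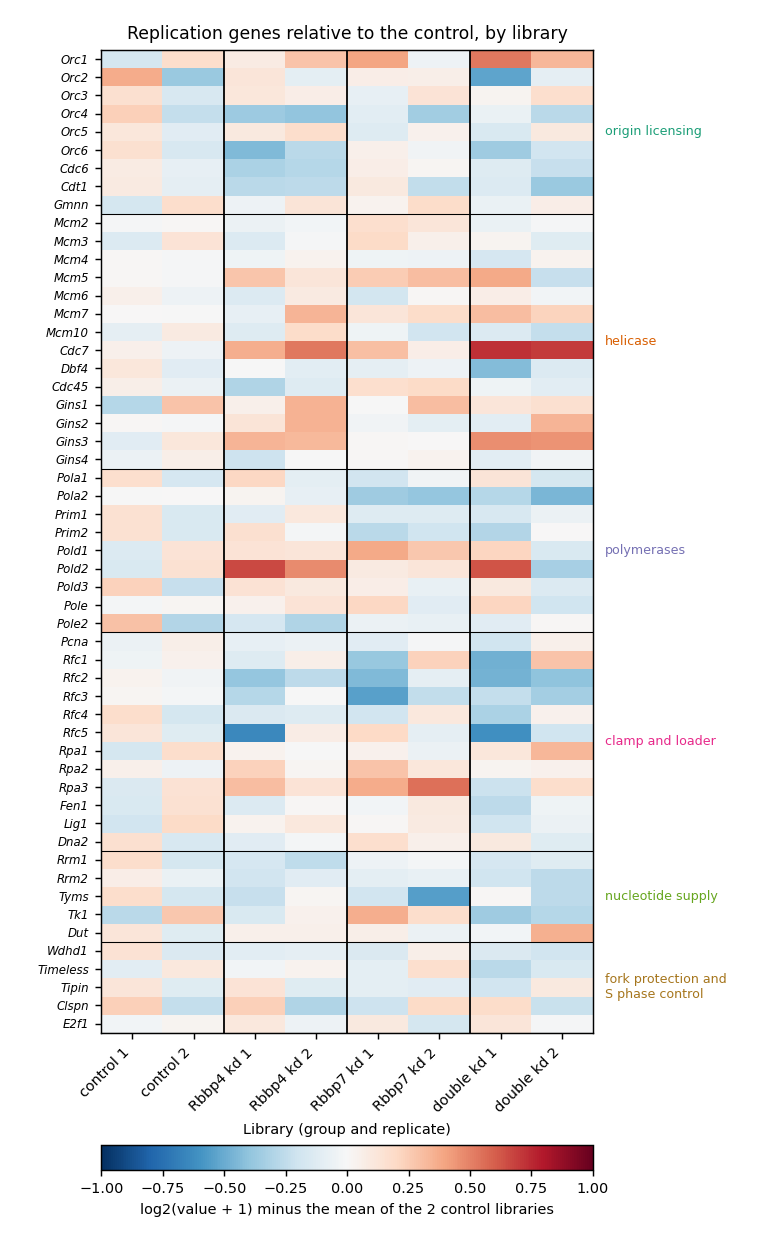
Colour gives log2(value + 1) minus the mean of the 2 control libraries for each of the 54 genes (rows, by role) in each of the 8 libraries (columns). Many rows have 1 colour across both libraries of a knockdown, and Cdc7 is the row with the strongest colour in both double knockdown libraries.

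Origin licensing genes had median log2 changes of 0.010, 0.027 and −0.17 in the Rbbp4, Rbbp7 and double knockdowns, with 0 of 9 called in each. Leaving out 1 library gave ranges of −0.35 to 0.010, −0.15 to 0.067 and −0.26 to 0.057 in turn, lowest without control replicate 2 in each, and the Rbbp4 knockdown median was negative without any 1 of its 4 libraries. Orc1, the largest subunit of the origin recognition complex, was at 357 and 458 (control), 428 and 492 (Rbbp4 knockdown), 533 and 391 (Rbbp7 knockdown) and 584 and 509.9 (double knockdown). Both double knockdown values were above both control values, with a log2 change of 0.43 ± 0.20 (standard error of the fit) and an adjusted p of 0.318 (limma, Benjamini-Hochberg). Orc1 shares part of its exons with Gm12743, so its reads may be split. Orc6, the smallest subunit, was at 857 and 684 (control), 563 and 636 (Rbbp4 knockdown), 794 and 748 (Rbbp7 knockdown) and 597 and 669 (double knockdown). Its Rbbp4 and double knockdown values were all below the control, and the Rbbp7 values lay within its range.

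Cdc6, the ATPase that helps load the Mcm ring, was at 2110 and 1888 (control), 1602 and 1642 (Rbbp4 knockdown), 2087 and 2027 (Rbbp7 knockdown) and 1824 and 1705 (double knockdown). Its log2 change was −0.30 ± 0.11 in the Rbbp4 knockdown, at an unadjusted p of 0.0265 and an adjusted p of 0.836 (limma, Benjamini-Hochberg), and −0.18 ± 0.11 in the double knockdown. Cdt1, the other loading factor, was at 2765 and 2441 (control), 2156 and 2168 (Rbbp4 knockdown), 2778 and 2195 (Rbbp7 knockdown) and 2364 and 2005 (double knockdown). For both genes the Rbbp4 and double knockdown libraries lay below both control libraries. Orc4, another subunit of the complex, was at 1242 and 892 (control), 817 and 801 (Rbbp4 knockdown), 979.9 and 826 (Rbbp7 knockdown) and 1005 and 874 (double knockdown). Control replicate 1 was the high library for Orc4, and control replicate 2 lay among the knockdown values.

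The helicase group had median log2 changes of 0.012, 0.074 and −0.0088 in the Rbbp4, Rbbp7 and double knockdowns, with 0 of 14 called in each, and the last of these was 0.049 after quantile normalization and 0.037 after scaling to equal totals. With 1 library left out the ranges were −0.054 to 0.11, −0.026 to 0.12 and −0.030 to 0.029. Within the Mcm ring, Mcm2 to Mcm4 had small fitted changes in the double knockdown. Mcm2 was at 2486 and 2526 (control), 2400 and 2454 (Rbbp4 knockdown), 2811 and 2723 (Rbbp7 knockdown) and 2397 and 2490 (double knockdown). Mcm3 was at 2238 and 2714 (control), 2242 and 2448 (Rbbp4 knockdown), 2820 and 2552 (Rbbp7 knockdown) and 2514 and 2269 (double knockdown). Mcm4 was at 2222 and 2191 (control), 2138 and 2262 (Rbbp4 knockdown), 2142 and 2129 (Rbbp7 knockdown) and 1961 and 2260 (double knockdown). For these 3 subunits the double knockdown log2 changes were −0.037 ± 0.10, −0.045 ± 0.13 and −0.068 ± 0.11, each smaller than its standard error, and those of Mcm2 and Mcm3 turned positive after quantile normalization and after scaling to equal totals. Mcm5 was at 508 and 502 (control), 613 and 548 (Rbbp4 knockdown), 602 and 626 (Rbbp7 knockdown) and 659 and 432 (double knockdown). Its 2 double knockdown libraries were the highest and the lowest of the 8. Mcm6 was at 2633 and 2462 (control), 2319 and 2715 (Rbbp4 knockdown), 2239 and 2568 (Rbbp7 knockdown) and 2660 and 2503 (double knockdown). Mcm7 was at 2736 and 2733 (control), 2583 and 3468 (Rbbp4 knockdown), 2970 and 3098 (Rbbp7 knockdown) and 3381 and 3193 (double knockdown). Both double knockdown libraries were above the control for Mcm7, with a log2 change of 0.26 ± 0.14 and an adjusted p of 0.378 (limma, Benjamini-Hochberg). Mcm7 shares sequence with the gene Gm5487 and exon bases with Ap4m1, so its reads may be split.

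Cdc7 and Gins3 were the genes of the set furthest above the control in the double knockdown. Cdc7 (chr5:106964322-106984432, GRCm38) encodes the kinase that triggers loaded helicases. It was at 395 and 368 (control), 491 and 549.9 (Rbbp4 knockdown), 469 and 399 (Rbbp7 knockdown) and 635 and 620.2 (double knockdown). Both double knockdown libraries lay above the 6 others, and both Rbbp4 knockdown libraries lay above the control. The double knockdown mean was 164% of the control mean, with a log2 change of 0.72 ± 0.15 (95% interval 0.37 to 1.07), an unadjusted p of 0.00116 and an adjusted p of 0.066 (limma, Benjamini-Hochberg), so it missed the threshold. The adjusted p ranged from 0.0504 to 0.225 over the alternative analyses. Cdc7 also had log2 changes of 0.45 ± 0.15 (Rbbp4 knockdown) and 0.18 ± 0.15 (Rbbp7 knockdown).

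Gins3 (chr8:95633453-95645060, GRCm38) encodes a subunit of the GINS complex. It was at 448 and 524 (control), 613 and 606 (Rbbp4 knockdown), 489.5 and 486 (Rbbp7 knockdown) and 668 and 663 (double knockdown). The Rbbp4 and double knockdown libraries were above the control, and the Rbbp7 knockdown libraries lay within its range. Its double knockdown mean was 137% of the control mean, with a log2 change of 0.46 ± 0.14 and an adjusted p of 0.15 (limma, Benjamini-Hochberg). The other GINS genes had smaller fitted changes. Gins1, Gins2 and Gins4 had log2 changes of 0.14, 0.12 and −0.073 in the double knockdown, and most exon bases of Gins2 overlap Gse1. Dbf4, the activating subunit of the Cdc7 kinase, was at 1611 and 1375 (control), 1482 and 1380 (Rbbp4 knockdown), 1397 and 1439 (Rbbp7 knockdown) and 1104 and 1354 (double knockdown). Both of its double knockdown libraries were below the other 6, the opposite side from Cdc7, with a log2 change of −0.28 ± 0.14 and an adjusted p of 0.342 (limma, Benjamini-Hochberg). Over all 54 genes, 2 lay above all other libraries in the double knockdown (3.7%, against 8.87% of all tested genes) and 4 below (7.41%, against 8.04%). The 4 were Dbf4, Rrm2, Tk1 and Timeless.

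**Figure D5:**
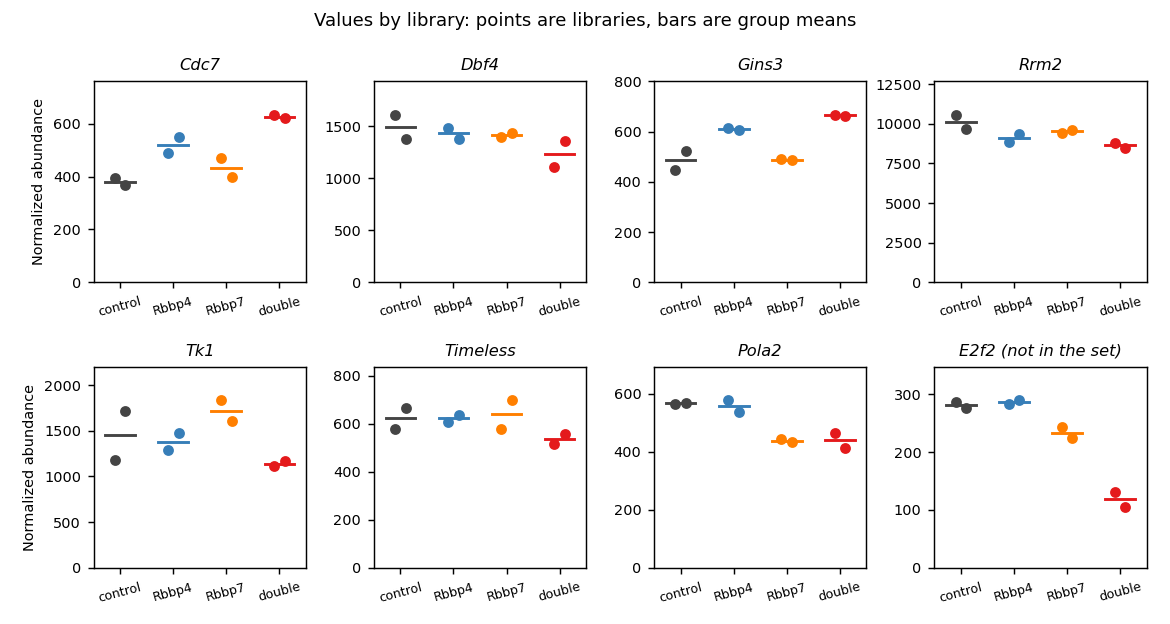
Normalized abundance (y axes, from 0) of 8 genes by group, with 1 point per library and a bar at the mean of the 2 libraries. Cdc7 and Gins3 are highest and Dbf4, Rrm2, Tk1 and Timeless lowest in the double knockdown, while E2f2, a gene outside the set, is at 132 and 105 there and at 224 or more in the other libraries.

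Polymerase genes had median log2 changes of 0.071, −0.067 and −0.022 in the Rbbp4, Rbbp7 and double knockdowns, with 0 of 9 called in each, and the last of these was 0.016 after quantile normalization and 0.024 after scaling to equal totals. The ranges with 1 library left out were −0.079 to 0.15, −0.28 to 0.026 and −0.25 to 0.095, again lowest without control replicate 2 in each. Pola2 (chr19:5940542-5964202, GRCm38), the regulatory subunit of the polymerase alpha and primase complex, was at 564 and 569 (control), 577 and 536 (Rbbp4 knockdown), 443 and 432 (Rbbp7 knockdown) and 466 and 411 (double knockdown). The Rbbp7 and double knockdown libraries were below all 4 control and Rbbp4 knockdown libraries. Its log2 changes were −0.37 ± 0.14 (Rbbp7 knockdown) and −0.37 ± 0.14 (double knockdown), with adjusted p of 0.465 and 0.235 (limma, Benjamini-Hochberg). Against the Rbbp4 knockdown the double knockdown differed by −0.35 ± 0.14, at an adjusted p of 0.507 in the same test. Pola1, the catalytic subunit of that complex, and Prim1, the catalytic subunit of primase, had double knockdown log2 changes of −0.022 and −0.11. Prim2 was at 308 and 250.2 (control), 309.9 and 275 (Rbbp4 knockdown), 230.2 and 242 (Rbbp7 knockdown) and 227 and 279 (double knockdown), and both Rbbp7 knockdown libraries were under all 4 control and Rbbp4 knockdown libraries, while the double knockdown overlapped every other group.

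For the polymerase delta subunits Pold1, Pold2 and Pold3 the 2 double knockdown libraries differed by 0.37, 0.96 and 0.23 on the log2 scale, and the 2 control libraries by 0.28, 0.30 and 0.46. Pold1, its catalytic subunit, was at 1314 and 1596 (control), 1595 and 1571 (Rbbp4 knockdown), 1887 and 1743 (Rbbp7 knockdown) and 1684 and 1299 (double knockdown). Pold2, its second subunit, was at 619.7 and 762 (control), 1088 and 955 (Rbbp4 knockdown), 731 and 748 (Rbbp7 knockdown) and 1061 and 545 (double knockdown). Both Rbbp4 knockdown libraries were above the control for Pold2, with a log2 change of 0.57 ± 0.27 and an adjusted p of 0.851 (limma, Benjamini-Hochberg), while the double knockdown libraries lay on either side of the control. Pole, the catalytic subunit of polymerase epsilon, and Pole2 had double knockdown log2 changes of 0.011 and −0.047.

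The clamp, its loader, RPA and the enzymes of strand completion had median log2 changes of −0.064, 0.014 and −0.11 in the Rbbp4, Rbbp7 and double knockdowns, with 0 of 12 called in each. In the double knockdown 10 of the 12 fitted changes were negative, against 9 after quantile normalization, 8 after scaling to equal totals and 6 without double knockdown replicate 1. Medians ranged over −0.12 to 0.0049, −0.12 to 0.069 and −0.23 to −0.0033 when 1 library was left out, with both ends of the last range set by the double knockdown replicates. Pcna, the sliding clamp, was at 1906 and 2076 (control), 1874 and 1914 (Rbbp4 knockdown), 1837 and 1973 (Rbbp7 knockdown) and 1729 and 2062 (double knockdown). Its log2 changes were −0.070 ± 0.13, −0.063 ± 0.13 and −0.075 ± 0.13 in turn, all smaller than the standard error, and part of its sequence is shared with the pseudogene Pcna-ps2. Among the loader subunits, Rfc2 was at 447 and 424 (control), 334 and 362 (Rbbp4 knockdown), 319.7 and 409 (Rbbp7 knockdown) and 314 and 330.1 (double knockdown). All 6 knockdown libraries lay below both control libraries for Rfc2, with log2 changes of −0.32 ± 0.18, −0.27 ± 0.18 and −0.44 ± 0.18 and a smallest adjusted p of 0.245 (limma, Benjamini-Hochberg). Exons of Rfc2 overlap those of Lat2. Rfc3 was at 455 and 445 (control), 369.7 and 449.6 (Rbbp4 knockdown), 309 and 379 (Rbbp7 knockdown) and 381 and 356 (double knockdown). The Rbbp7 and double knockdown libraries of Rfc3 were below the control, and those of the Rbbp4 knockdown were not both below it. Rfc1, Rfc4 and Rfc5 had double knockdown log2 changes of −0.10, −0.14 and −0.41.

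RPA coats single-stranded DNA at the fork. Rpa2, its middle subunit, was at 987 and 922 (control), 1120 and 967 (Rbbp4 knockdown), 1161 and 1031 (Rbbp7 knockdown) and 974 and 981 (double knockdown). Rpa3, its smallest subunit, was at 214 and 262 (control), 292 and 259.7 (Rbbp4 knockdown), 305 and 347 (Rbbp7 knockdown) and 203 and 268 (double knockdown). Both Rbbp7 knockdown libraries were above both control libraries for each gene, and the double knockdown values of Rpa3 lay on either side of the control. Rpa1, the largest subunit, had a log2 change of 0.22 in the double knockdown. Fen1, Lig1 and Dna2, which trim and seal the lagging strand, had double knockdown log2 changes of −0.15, −0.13 and −0.012. Most exon bases of Fen1 overlap Gm10143 or Tmem258, and no source used here says whether reads were counted by strand.

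Nucleotide supply genes had median log2 changes of −0.10, −0.039 and −0.15 in the Rbbp4, Rbbp7 and double knockdowns, with 0 of 5 called in each. Without 1 library they ranged over −0.21 to 0.021, −0.15 to −5.3e-05 and −0.29 to 0.025, and the double knockdown median was positive only without control replicate 1. Rrm2 was at 10582 and 9695 (control), 8866 and 9375 (Rbbp4 knockdown), 9452 and 9606 (Rbbp7 knockdown) and 8822 and 8454 (double knockdown). All 6 knockdown libraries were below both control libraries, and the double knockdown was lowest, with a log2 change of −0.23 ± 0.10 (95% interval −0.46 to 0.00053) and an adjusted p of 0.29 (limma, Benjamini-Hochberg). Tk1, the thymidine kinase of S phase, was at 1183 and 1718 (control), 1285 and 1471 (Rbbp4 knockdown), 1835 and 1608 (Rbbp7 knockdown) and 1115 and 1169 (double knockdown). Its control libraries were far apart, and the double knockdown libraries lay just under the lower of them. Against the Rbbp7 knockdown, Tk1 differed in the double knockdown by −0.59 ± 0.18, at an unadjusted p of 0.00891 and an adjusted p of 0.172 (limma, Benjamini-Hochberg). Tyms, which makes thymidylate, was at 1967 and 1542 (control), 1486 and 1767 (Rbbp4 knockdown), 1521 and 1188 (Rbbp7 knockdown) and 1754 and 1453 (double knockdown). Rbbp7 knockdown libraries were below the control for Tyms, and the double knockdown libraries lay on either side of the lower control value. Dut, which removes dUTP, and Rrm1, the large subunit of ribonucleotide reductase, had double knockdown log2 changes of 0.16 and −0.15.

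Fork protection and S phase control genes had median log2 changes of 0.0031, −0.040 and −0.046 in the Rbbp4, Rbbp7 and double knockdowns, with 0 of 5 called in each. Their ranges without 1 library were −0.11 to 0.10, −0.19 to 0.058 and −0.16 to 0.029, and the double knockdown median was −0.00018 after scaling to equal totals. Timeless, which with Tipin holds the helicase and polymerases together, was at 578 and 667 (control), 609 and 636 (Rbbp4 knockdown), 579.6 and 698 (Rbbp7 knockdown) and 516 and 558 (double knockdown). Its double knockdown libraries were below the other 6, with a log2 change of −0.21 ± 0.15 and an adjusted p of 0.52 (limma, Benjamini-Hochberg). Tipin had a double knockdown log2 change of −0.046. E2f1, a transcription factor of S phase genes, was at 448 and 463 (control), 489.7 and 439.8 (Rbbp4 knockdown), 486 and 404 (Rbbp7 knockdown) and 495 and 451 (double knockdown), with all groups overlapping. Clspn, the adaptor of the replication checkpoint kinase, was the gene with the poorest replicate agreement, at 585 and 422 (control), 585 and 403 (Rbbp4 knockdown), 431 and 566 (Rbbp7 knockdown) and 565 and 426 (double knockdown).

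Comparisons between knockdowns gave the same counts. Between the double and the Rbbp4 knockdown 0 of 54 genes were called (limma, Benjamini-Hochberg), where 0.0159% of all tested genes were, with 1 gene at an unadjusted p below 0.05 (Pola2), where 9.57% of all tested genes were. Between the double and the Rbbp7 knockdown 0 were called, where 0.358% were, with 4 genes at an unadjusted p below 0.05 (Cdc7, Gins3, Rpa3 and Tk1), where 15% were. Cdc7 was higher in the double than in the Rbbp7 knockdown by 0.54 ± 0.15 on the log2 scale, with the smallest adjusted p of the set there, 0.157 (limma, Benjamini-Hochberg). In that comparison both double knockdown libraries lay below both Rbbp7 libraries for 18 genes (33.3%, against 23.2% of all tested genes) and above for 4 (7.41%, against 23.1%). Fitted changes there were negative for 33 of 54 genes, and for 26 after scaling to equal totals. The median of the set was −0.031 there, beside −0.014 over all tested genes. Over alternatives other than leaving out 1 library, these medians reached 0.011 and 0.026 in turn. Against the Rbbp4 knockdown both double knockdown libraries lay below for 10 genes (18.5%, against 21.5%) and above for 8 (14.8%, against 20.9%). Fitted changes in that comparison were negative for 32 of 54 genes, with a median of −0.060 beside −0.0033 over all tested genes.

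The interaction asks whether the double knockdown's change differs from the sum of the single changes. Here 0 of 54 genes were called (limma, Benjamini-Hochberg), where 0.00796% of all tested genes were, and 1 gene, Rpa3, had an unadjusted p below 0.05, where 6.49% did. The interaction of Rpa3 was −0.70 ± 0.30 on the log2 scale, with an adjusted p of 0.76, the smallest of the set. Fitted interactions were positive for 27 genes and negative for 27, with a median of −0.0040 beside −0.017 over all tested genes. Among the 8 genes with the smallest unadjusted p, Orc4 and Tyms had positive interactions, at 0.44 ± 0.25 and 0.35 ± 0.25. The rest were negative. Besides Rpa3, Tk1, Pold1 and Rpa2 were at −0.54 ± 0.25, −0.42 ± 0.22 and −0.29 ± 0.19. Mcm5 and Pold2 were at −0.40 ± 0.28 and −0.53 ± 0.38. Intervals here were wider, and 48 of 54 lay inside a 2-fold difference (88.9%, against 45.7% of all tested genes).

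Fitted changes of genes with and without a promoter octamer are set side by side here, with no test. In the double knockdown the 16 genes with an octamer had a median log2 change of −0.020 and the 29 with a window and no octamer −0.12. Over all tested genes the medians were −0.021 for 454 genes with an octamer, of which 5 were called, and −0.0061 for 9073 without, of which 109 were called. Gins3 and Cdc7 differed in this respect, since Gins3 held an octamer in its window and Cdc7 held none.

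Other genes of the pathway were read from 5 further lists. Of 27 tested further replication factors, 27 genes of nucleotide synthesis, 14 chromatin assembly factors and 15 replication checkpoint genes, 0 were called in any knockdown against the control (limma, Benjamini-Hochberg), where 1.15% of all tested genes were called in the double knockdown. There 6, 3, 2 and 3 of them in turn had an unadjusted p below 0.05, where 17.3% of all tested genes had one, and the median log2 changes were −0.049, 0.011, −0.023 and −0.18. Of 27 tested genes of G1/S transcription and cyclins, 1 was called, E2f2, which fell in the double knockdown, and 9 had an unadjusted p below 0.05 there, beside the same 1.15% and 17.3% of all tested genes. The median log2 change of this list was −0.17. E2f2 encodes an E2F transcription factor that activates S phase genes and is not in the set of 54. It was at 286 and 276 (control), 283 and 289.6 (Rbbp4 knockdown), 243 and 224 (Rbbp7 knockdown) and 132 and 105 (double knockdown). Both double knockdown libraries were below all others, with a log2 change of −1.25 ± 0.20 and an adjusted p of 0.0268 (limma, Benjamini-Hochberg). That call was lost when any 1 library was left out (adjusted p from 0.0528 to 0.101), with no intensity trend in the prior, with weights per group and with only the groups compared, and its adjusted p in limma ranged from 0.0218 to 0.172 over the alternatives. Its promoter window held 1 octamer, 5′ to 3′ along the gene.
E2f2 chr4:136172294-136172323 (+ strand): cgaatttggcggcatatagTTTGGCGCtaa
Chaf1a, the large subunit of CAF-1 and a partner of Rbbp4, was at 910.2 and 997 (control), 858 and 909 (Rbbp4 knockdown), 713 and 806 (Rbbp7 knockdown) and 945 and 893 (double knockdown). Chaf1b, the middle subunit, was at 981 and 763 (control), 635 and 898 (Rbbp4 knockdown), 821 and 723 (Rbbp7 knockdown) and 746 and 669 (double knockdown). Their double knockdown log2 changes were −0.053 ± 0.13 and −0.29 ± 0.20, with adjusted p of 0.879 and 0.483 (limma, Benjamini-Hochberg). For Chaf1b both double knockdown libraries were below the control and within the range of the single knockdowns, while for Chaf1a both Rbbp7 knockdown libraries were below all others.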

How the data were processed

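Polyadenylated RNA of 8 mouse late morula libraries (4 groups of 2) was analysed from 1 deposited table of the whole series. Per the submitters' processing notes, the tools were Trimmomatic, HISAT2, featureCounts and DESeq2 and the build was GRCm38. Tool versions, annotation release and use of strand were not given in the sources used here. All values were a deposited signal made by the authors, abundance per Ensembl gene normalized between libraries and not raw counts, per the table's name. Their low values were not whole multiples of 1 step, so reads were not recovered, sequencing depth is unknown and no count test was run. Of the identifiers 18942 had a symbol and 116 had none, and 0 columns belonged to other samples. The column names of the double knockdown differ by 1 letter from the titles and were matched through the gene numbers they carry.

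Values were analysed as log2(value + 1), on which a fold change of a low gene is understated. Genes with a mean of at least 10 were tested (12565; 6493 left out) with limma 3.58.1 in R 4.3.3, with 1 mean per group over all 8 libraries and an intensity trend in the variance prior. Residual degrees of freedom were 4 and prior degrees of freedom 5.18. Each knockdown was compared with the control and the double with each single knockdown, and the interaction made 6 comparisons. Tests were two-sided, with Benjamini-Hochberg adjustment within a comparison and a threshold of 0.05, and intervals are at 95% per gene, unadjusted. The fit was tested on simulated data.

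Lengths, positions and exon overlaps came from GENCODE M21 (GRCm38), and shared sequence was counted as 50-base words found in transcripts of other genes. By these, 16 genes of the set share over 5% of their words and 8 have over 10% of exon bases in another gene. Promoter windows came from RefSeq, and for Gmnn, Mcm4, Gins1, Gins2, Gins4, Prim2, Pole, Rfc2 and Tipin none was used here. The members and all gene lists were chosen with earlier results of these data known. Named with values in every library were the 8 genes with the smallest p in each comparison with the control and in the interaction, Mcm2 to Mcm7, Pcna, the highest and lowest gene, the targets, Chaf1a, Chaf1b and called genes of the further lists; Timeless, E2f1 and Clspn were added after their values were seen. Alternatives changed the pseudocount, filter, scaling, variance model, samples fitted, replicate block and libraries kept.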

Additional observations from a re-analysis of the deposited data

How the results depend on the processing

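In all 6 comparisons 0 of the 54 genes were called under every alternative run (limma, Benjamini-Hochberg). The labels give all groups replicate numbers 1 and 2, but deviations of same-numbered libraries did not go together over all tested genes (correlations of −0.022 to 0.051 across 12565 genes, and −0.16 to 0.30 across the 54 genes of the set), and a fit with the replicate block also called 0 of 54 genes, with 113 genes called in the double knockdown over all tested genes. Counts over all tested genes moved more. Against the control the double knockdown had 144 calls, 18 to 94 when 1 library was left out, and 10 with no intensity trend, 38 with weights per group and 2 with only the groups compared. Leaving out 1 library gave 2 to 35 calls in the Rbbp4 knockdown (3 with all), 1 to 38 in the Rbbp7 knockdown (3 with all), 2 to 13 between the double and the Rbbp4 knockdown (2 with all), 5 to 43 between the double and the Rbbp7 knockdown (45 with all) and 1 to 21 in the interaction (1 with all). The largest counts in both single knockdowns and in the interaction came without control replicate 2. The median interaction of the set ranged from −0.072 (without Rbbp4 knockdown replicate 1) to 0.012, and the cause was not tested. The share of genes with a promoter octamer was 20.0% before the start alone, a shorter window, and 24.4% with TTTCGCGC and TTTGGCGC only. These shares were 2.16% and 0.929% of all genes with a window, and 3.96% and 1.83% of tested genes.

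Signs of fitted log2 changes near 0 turned in some settings. In the double knockdown they were 0.018 (quantile normalization) and 0.0088 (equal totals) for Mcm2 and 0.011 and 0.00033 for Mcm3. In the Rbbp4 knockdown they were 0.0057 (TMM scaling), 0.021 (quantile) and 0.031 (equal totals) for Mcm4, and 0.014 (equal totals) for Mcm6. Leaving out 1 library gave ranges, in the double knockdown, of −0.18 to 0.094 for Mcm3, −0.17 to 0.035 for Mcm4, −0.23 to 0.38 for Mcm5, −0.029 to 0.068 for Mcm6 and −0.20 to 0.052 for Pcna. In the Rbbp4 knockdown the ranges were −0.21 to 0.066 for Mcm3, −0.045 to 0.036 for Mcm4, −0.13 to 0.093 for Mcm6 and −0.082 to 0.34 for Mcm7. In the Rbbp7 knockdown they were −0.017 to 0.26 for Mcm3, −0.19 to 0.012 for Mcm6 and −5.3e-05 to 0.54 for Tk1. The cause was not tested. With 2 libraries a group and unknown depth, no counting error can be given for any value.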
